A study of Arabidopsis thaliana with 10 samples.

Results

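The proteins that capture light and fix CO2 in plant chloroplasts are encoded partly in the nucleus, and 46 nuclear genes of Arabidopsis thaliana for such proteins are described here. They were listed by locus, not by signal. They are 9 genes of the light-harvesting antenna that forms trimers around photosystem II (LHCB1.1 to LHCB1.5, LHCB2.1 to LHCB2.3 and LHCB3), 5 genes of its minor antenna (LHCB4.1 to LHCB4.3, LHCB5 and LHCB6) and 6 genes of the photosystem I antenna (LHCA1 to LHCA6). The list also holds 12 PSA genes for subunits of photosystem I, 9 PSB genes for subunits of photosystem II, 4 RBCS genes for the small subunit of Rubisco and RCA, the gene of Rubisco activase. All 46 were measured, by 160 probes with 1 to 13 probes per gene, among 22473 genes kept for testing. Every one of the 160 probes was well above background on all 10 arrays.

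RNA came from whole seedlings, 15 or 7 days old, that grew on agar with sucrose under short days, and each sample was hybridised to its own 1-colour microarray. The 4 genotypes were LFYasEMF1/ult1-3, LFYasEMF1, ult1-3 and wild type (WT). EMF1 is a Polycomb-type repressor of flower genes. LFYasEMF1 plants carry an antisense EMF1 transgene under the LEAFY promoter, a promoter known from young leaf and flower primordia, whereas the RNA was taken from the whole seedling. ULT1 is a trithorax-type activator, ult1-3 is a mutant allele of its gene, and LFYasEMF1/ult1-3 carries the transgene and the allele together. Each mutant genotype had 1 array per age and WT had 2 arrays per age, which gave 10 arrays in 8 groups. The number of seedlings and of transgenic lines behind a sample is not given in the sources used here. Nothing in the labels says that samples came from separate cultures, so the p-values cover the spread among these arrays, possibly a technical one, and nothing more, and the number of arrays limits the precision.

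In chloroplasts, the antenna proteins of the LHCB and LHCA families bind chlorophyll and pass excitation energy to the reaction centres of photosystem II and photosystem I. The photosystems move electrons from water to ferredoxin, and the ATP and NADPH so formed drive CO2 fixation by Rubisco. The reaction centre proteins and the large subunit of Rubisco are made in the plastid, and the genes described here supply antenna, peripheral and small subunits that are imported. They are known as genes induced by light and, for many antenna genes, controlled by the circadian clock.

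The arrays lay on 3 slides, and each slide was scanned on a day of its own, per the file headers. Slide 1 carried both LFYasEMF1 samples together with replicate 1 of WT at 15 and 7 days. Slide 3 carried the 15-day samples of LFYasEMF1/ult1-3, ult1-3 and WT replicate 2, and slide 2 carried their 7-day samples. The share of spots well above background was 71.7% to 80.1%, the 75th percentile of signal lay between 3734 and 6014, and no spot was saturated. Values are log2 of the signal over the 75th percentile of its own array, so that 0 is the percentile itself. The slides differed in clock gene levels: the median of 6 evening genes minus that of 6 morning genes was 1.24 to 4.52 on slide 1 and -4.92 to -3.48 on slides 2 and 3. The time of harvest is not given in the sources used here. The ULT1 probe read -5.81 and -6.46 at 15 and 7 days in LFYasEMF1/ult1-3, -2.76 and -2.33 in ult1-3, and -0.95 to -0.16 on the WT arrays. EMF1 read -1.62 and -3.10 in LFYasEMF1/ult1-3, -0.49 and -1.71 in LFYasEMF1, -1.73 and -2.55 in ult1-3 and -3.07 to -1.29 in WT, and whether its probe tells the antisense RNA from the gene's own is not known. Of 7 flower organ markers, 7 were well above background in LFYasEMF1/ult1-3 and LFYasEMF1 and 2 to 5 in the other samples, and their summed signal was 1.28 to 4.34 in LFYasEMF1/ult1-3, 12.5 to 14.8 in LFYasEMF1, 0.18 to 0.47 in ult1-3 and 0.33 to 0.55 in WT, in units of the 75th percentile. Of 8 root markers, 7 or 8 were well above background on every array, with a summed signal of 31.5 to 43.4 at 15 days and 48.7 to 75.6 at 7 days. Of 3 seed storage markers, 3 were well above background on the 7-day LFYasEMF1/ult1-3 array, with a summed signal of 0.254, and 0 or 1 on every other array, with 0.0035 to 0.025. The part of the flower organ, root and seed storage RNA in the results below was not tested. In RNA of whole seedlings, fewer cells of a type and less RNA per cell cannot be told apart.

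The 46 genes varied little between the 10 arrays. The median of their standard deviations over the arrays was 0.23 on the log2 scale, against 0.52 for all 22473 genes, and 2 of the 46 (4.35%) had one above 0.5, against 52.7% of all genes. These 2 were LHCB2.3 (0.76) and LHCB4.3 (0.67), followed by LHCB2.1 (0.45) and PSAD-2 (0.36), while LHCA4 (0.14) and PSBP-1 (0.15) varied least. The 46 are bright, with a median log2 level of 5.81 to 6.40 on an array, whereas all genes include those above background on as few as 1 array. No set of genes of like signal was compared, here or below, so the part of brightness in these contrasts with all genes was not tested. Set against each gene's own mean over the 10 arrays, the median of the 46 was -0.07 at 15 days and 0.25 at 7 days in LFYasEMF1/ult1-3, -0.0042 and 0.20 in LFYasEMF1, and 0.02 and 0.14 in ult1-3. In WT it was 0.13 at 15 days and -0.10 at 7 days on slide 1, and -0.39 at 15 days and -0.10 at 7 days on slides 3 and 2. The lowest array was the 15-day WT of slide 3, which also had the highest share of spots well above background (80.1%), and whose median deviation over all genes was -0.03. On that array the medians of the 7 roles lay between -0.41 for the PSA genes and -0.10 for RCA, and on the 7-day LFYasEMF1/ult1-3 array they lay between 0.19 for the minor antenna and 0.35 for the RBCS genes.

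**Figure D1:**
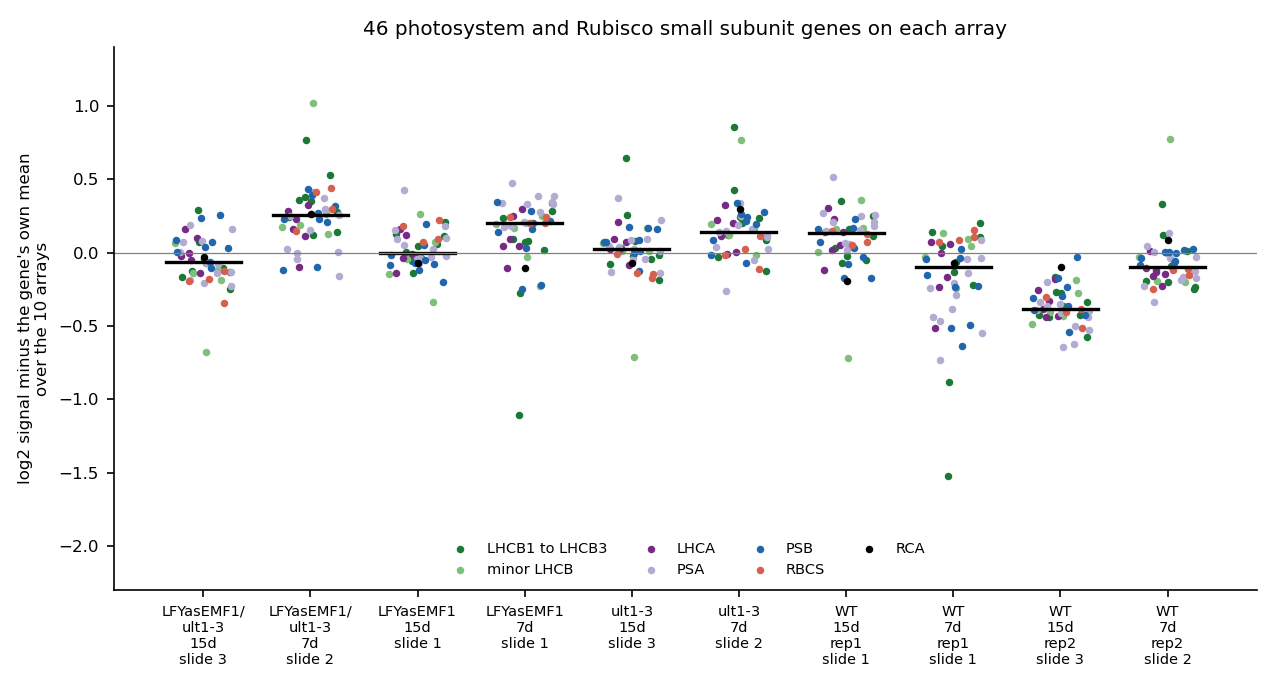
The log2 signal of each of the 46 genes minus its own mean over the 10 arrays, 1 point per gene coloured by role, by genotype, age (15d, 7d) and slide, with the median as a bar. The medians lie between -0.39 in the 15-day WT of slide 3 and 0.25 in the 7-day LFYasEMF1/ult1-3, and the low points of the 7-day arrays of slide 1 are LHCB2.3 and, in WT, LHCB2.1.

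Whether the genotypes differed was tested first over both ages and all slides, with limma, genotype and age in the fit, and Benjamini-Hochberg adjustment over all genes. None of the 46 genes passed an adjusted p of 0.05 against WT in LFYasEMF1/ult1-3, LFYasEMF1 or ult1-3, where 0.792%, 1.68% and 0.0623% of all tested genes passed. At an unadjusted p under 0.05 the count was also 0 of 46 in each comparison, against 15.8% of all genes in LFYasEMF1/ult1-3, 11.9% in LFYasEMF1 and 4.27% in ult1-3. The lowest adjusted p of a member in limma was 0.317 in LFYasEMF1/ult1-3, 0.514 in LFYasEMF1 and 0.934 in ult1-3. The log2 changes ran from -0.04 to 0.69 in LFYasEMF1/ult1-3, from -0.33 to 0.57 in LFYasEMF1 and from -0.06 to 1.01 in ult1-3. They were under 0.5 in size for 43 of 46 genes in LFYasEMF1/ult1-3 (59.4% of all genes), 45 in LFYasEMF1 (67.2%) and 44 in ult1-3 (75.4%). For 40 of the 46 genes in each of the 3 comparisons the whole 95% interval lay within a 2-fold change either way, with a median reach of 0.56 log2 units to each side. For the other 6, a change of 2-fold was not outside the interval. These intervals take the 2 ages of a mutant as its replicates, and the share of all genes with intervals within 2-fold was not counted. In a fit of the group means the residual spread came from the WT pairs alone, and limma draws each gene's spread toward that of all genes. There the interval lay within 2-fold for 0 genes in LFYasEMF1/ult1-3, 1 in LFYasEMF1 and 0 in ult1-3, with a median reach of 1.00.

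The sign of these small changes depended on how the arrays were scaled. With the 75th percentile, 43 of the 46 changes were positive in LFYasEMF1/ult1-3, 42 in LFYasEMF1 and 45 in ult1-3, with medians of 0.23, 0.23 and 0.20, where 49.8%, 50.2% and 48.1% of all genes were positive. After quantile normalization the counts were 22, 26 and 31 of 46, with medians of -0.0060, 0.02 and 0.08. The authors' deposited value table gave 22, 25 and 31. No count of members past the threshold moved from 0 under either scaling. Genes whose arrays did not overlap were counted with the 75th percentile scaling only, so these counts carry the same dependence. By that count, 7 members were above all 4 WT arrays in both LFYasEMF1/ult1-3 arrays (9.14% of all genes) and 0 were below (6.61%). In LFYasEMF1, 5 were above (8.32%) and LHCB4.2 was below (7.79%), and in ult1-3, 11 were above (5.38%) and 0 below (4.33%).

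**Figure D2:**
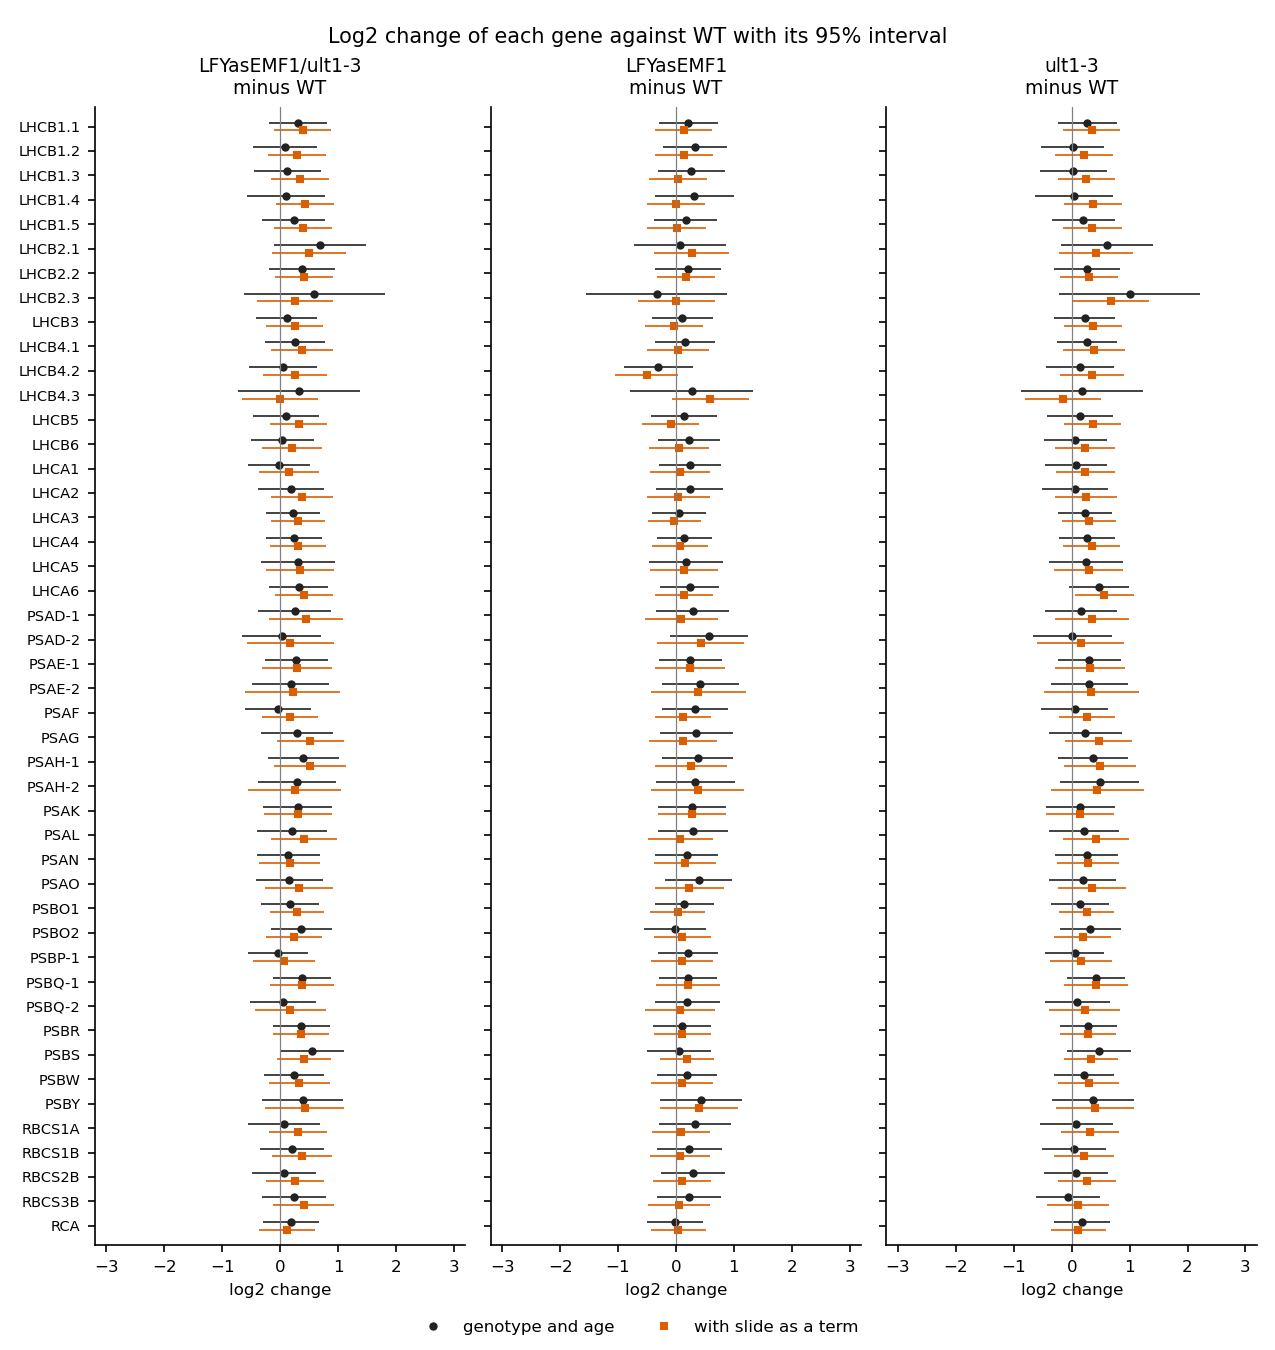
Log2 change of each of the 46 genes against WT with its 95% interval, in LFYasEMF1/ult1-3, LFYasEMF1 and ult1-3, from the fit of genotype and age (black) and with slide as a term (orange). Nearly all points lie between -0.5 and 0.5, and the intervals of LHCB2.3 and LHCA6 in ult1-3 with slide as a term exclude 0 before any adjustment.

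Within a slide the mutants were set against the WT array of the same age. In LFYasEMF1/ult1-3 the difference from that array had a median over the 46 genes of 0.30 at 15 days (45 positive, against 51.5% of all genes) and 0.34 at 7 days (42 positive, against 49.3%). In ult1-3 it was 0.37 at 15 days (45 positive, against 48.5%) and 0.23 at 7 days (44 positive, against 48.7%). In LFYasEMF1, whose WT partners were those of slide 1, it was -0.08 at 15 days (10 positive, against 49.5%) and 0.26 at 7 days (43 positive, against 53.2%). At each age LFYasEMF1/ult1-3 and ult1-3 shared the same WT array, so their counts here are not independent. At 15 days that array was the lowest of all for the 46 genes (median deviation -0.39). Without it, the fit over all slides gave medians of 0.16 in LFYasEMF1/ult1-3 (36 positive) and 0.12 in ult1-3 (34 positive). Whether the within-slide signs depended on the scaling was not tested. A lower 75th percentile raises every scaled value of its array. On slide 2 it was 3734 in LFYasEMF1/ult1-3, 3850 in ult1-3 and 4919 in WT, and on slide 3 it was 4793, 4872 and 5547. On slide 1 it was 5570 in LFYasEMF1 and 6014 in WT at 15 days, and 5258 and 5208 at 7 days. The 12 PSA genes had a median difference in LFYasEMF1 of -0.11 at 15 days (0 positive) and 0.59 at 7 days (12 positive). No member differed by more than 1 log2 unit within a slide in any of these 6 pairs, where 10.3% to 23.4% of all genes did. At both ages, 41 members were above the same-slide WT in LFYasEMF1/ult1-3 (34.1% of all genes), 9 in LFYasEMF1 (31.6%) and 44 in ult1-3 (31.9%). Between the WT arrays, slide 1 minus the other slide had a median of 0.47 at 15 days (43 positive, against 48.9%) and 0.03 at 7 days (24 positive, against 48.3%).

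With slide as a term in the limma fit, LFYasEMF1 was compared with WT on slide 1 and the other mutants on slides 2 and 3. Again 0 of 46 members passed in LFYasEMF1/ult1-3 (1.45% of all genes), LFYasEMF1 (2.18%) and ult1-3 (0.0356%). At an unadjusted p under 0.05, the members numbered 0 in LFYasEMF1/ult1-3 (26.5% of all genes), 0 in LFYasEMF1 (15.7%) and 2 in ult1-3 (11.2%). The 2 were LHCB2.3 and LHCA6, named after their values were seen. Their log2 changes in ult1-3 were 0.67 ± 0.27 and 0.57 ± 0.20 (SE), with adjusted p of 0.442 and 0.418 in limma. The medians over the members were 0.32 in LFYasEMF1/ult1-3, 0.10 in LFYasEMF1 and 0.31 in ult1-3. Separate fits found 0 members in LFYasEMF1 within slide 1 (1.34% of all genes), and 0 within slides 2 and 3 in LFYasEMF1/ult1-3 (0.552%) and ult1-3 (0.0222%).

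LFYasEMF1/ult1-3 was also set against each parent line. Against LFYasEMF1, 0 of 46 members passed (0.913% of all genes), 0 had an unadjusted p under 0.05 (19.5%), and the median log2 difference was 0.01 with 24 positive (49.4% of all genes). These lines shared no slide. With slide as a term, which links them through WT, 0 passed (0.303%), 0 had an unadjusted p under 0.05 (21.5%), the median was 0.23 and 41 were positive (48.6%). Against ult1-3, with which it shared slides 2 and 3, 0 passed (0.369%), 0 had an unadjusted p under 0.05 (3.52%) and the median was 0.01 with 25 positive (50.8%). Within those slides 0 passed as well (0.303%), and with slide as a term over all arrays 0 passed (0.423%) and 0 had an unadjusted p under 0.05 (6.61%). LFYasEMF1/ult1-3 was above ult1-3 at both ages for 8 members (31.5% of all genes) and below for 11 (26.7%).

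In the trimeric antenna of photosystem II, LHCB1.5, a gene of its main light-gathering protein (AT2G34420), measured 6.68 and 7.17 at 15 and 7 days in LFYasEMF1/ult1-3, 6.81 and 6.90 in LFYasEMF1 and 6.84 and 6.93 in ult1-3. In WT it measured 6.84 and 6.85 on slide 1 and 6.37 and 6.68 on slides 3 and 2. Each mutant overlapped WT, and the log2 change was 0.24 ± 0.23 in LFYasEMF1/ult1-3 (SE, limma, adjusted p at least 0.317 for every member). LHCB2.3 (AT3G27690) and LHCB2.1 (AT2G05100), whose products join the same trimers, were the variable members of this group. LHCB2.3 measured 4.93 and 5.02 at 15 and 7 days in LFYasEMF1/ult1-3, 4.59 and 3.53 in LFYasEMF1 and 5.29 and 5.50 in ult1-3. Its WT values were 4.99 and 3.12 on slide 1 and 4.47 and 4.98 on slides 3 and 2. Both ult1-3 arrays were above all 4 WT arrays, and the 7-day arrays of slide 1 were low in LFYasEMF1 and WT alike. The change in ult1-3 was 1.01 ± 0.52 (SE), with an adjusted p of 0.934 in limma. LHCB2.1 measured 5.02 and 5.72 in LFYasEMF1/ult1-3, 4.82 and 4.68 in LFYasEMF1 and 5.21 and 5.38 in ult1-3. In WT, LHCB2.1 measured 4.89 and 4.07 on slide 1 and 4.69 and 5.08 on slides 3 and 2. Only the ult1-3 arrays lay above every WT array, and the change in LFYasEMF1/ult1-3 was 0.69 ± 0.34 (SE, limma adjusted p 0.367). LHCB1.1, LHCB1.2 and LHCB1.3 are neighbours on the chromosome, as are LHCB1.4 and LHCB1.5, and near-identical copies may share signal on their probes.

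The minor antenna proteins link the trimers to the core of photosystem II. LHCB6 (AT1G15820) measured 6.43 and 6.75 at 15 and 7 days in LFYasEMF1/ult1-3, 6.69 and 6.87 in LFYasEMF1 and 6.63 and 6.60 in ult1-3. Its WT values were 6.79 and 6.67 on slide 1 and 6.35 and 6.42 on slides 3 and 2, so that all genotypes overlapped. LHCB4.3 (AT2G40100), a divergent copy of the LHCB4 genes, measured -1.69 and -0.0020 in LFYasEMF1/ult1-3, -0.76 and -1.05 in LFYasEMF1 and -1.73 and -0.26 in ult1-3. In WT, LHCB4.3 measured -1.74 and -1.26 on slide 1 and -1.45 and -0.25 on slides 3 and 2. It was high on the 3 arrays of slide 2 and low on the 3 arrays of slide 3 whatever the genotype, and its changes against WT over all slides were 0.33 ± 0.46 or less in size (SE).

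In the antenna of photosystem I, LHCA4 (AT3G47470) measured 6.63 and 6.65 at 15 and 7 days in LFYasEMF1/ult1-3, 6.52 and 6.57 in LFYasEMF1 and 6.60 and 6.73 in ult1-3. The WT arrays gave 6.58 and 6.36 on slide 1 and 6.35 and 6.30 on slides 3 and 2. LFYasEMF1/ult1-3 and ult1-3 lay above WT on every array, by 0.24 and 0.27 log2 units in the fit. LHCA6 (AT1G19150), whose product is known from the link between photosystem I and the NDH complex, measured 3.15 and 3.38 in LFYasEMF1/ult1-3, 3.12 and 3.25 in LFYasEMF1 and 3.36 and 3.48 in ult1-3. The WT values of LHCA6 were 3.17 and 2.92 on slide 1 and 2.71 and 3.00 on slides 3 and 2. Only ult1-3 was above all of them, by 0.47 ± 0.22 (SE, limma adjusted p 0.934).

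Among the photosystem I subunits, PSAG (AT1G55670), a subunit at the antenna side of the complex, measured 6.30 and 6.81 at 15 and 7 days in LFYasEMF1/ult1-3, 6.41 and 6.82 in LFYasEMF1 and 6.40 and 6.60 in ult1-3. WT gave 6.59 and 6.40 on slide 1 and 5.82 and 6.25 on slides 3 and 2, and the genotypes overlapped. PSAD-2 (AT1G03130), 1 of 2 genes of the subunit that docks ferredoxin, measured 5.06 and 5.25 in LFYasEMF1/ult1-3, 5.67 and 5.72 in LFYasEMF1 and 5.29 and 4.99 in ult1-3. In WT, PSAD-2 measured 5.77 and 4.78 on slide 1 and 5.05 and 4.91 on slides 3 and 2. The LFYasEMF1 arrays were high, but the 15-day WT array of the same slide was higher still. The change in LFYasEMF1 was 0.57 ± 0.29 without the slide term and 0.42 ± 0.30 with it (SE, limma adjusted p 0.514 without it). The PSA changes of all 12 genes ran from -0.04 to 0.40 in LFYasEMF1/ult1-3, from 0.18 to 0.57 in LFYasEMF1 and from 0.01 to 0.48 in ult1-3.

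Among the photosystem II subunits, PSBO1, PSBP-1 and the PSBQ proteins belong to the complex that splits water, and PSBS is the sensor that sheds excess light energy as heat. PSBO1 (AT5G66570) measured 6.71 and 7.08 at 15 and 7 days in LFYasEMF1/ult1-3, 6.76 and 6.97 in LFYasEMF1 and 6.69 and 7.02 in ult1-3, against 6.45 to 6.84 in WT. PSBP-1 (AT1G06680) measured 6.06 and 6.02 in LFYasEMF1/ult1-3, 6.17 and 6.40 in LFYasEMF1 and 6.20 and 6.05 in ult1-3, against 5.89 to 6.28 in WT. For both genes every mutant overlapped WT. PSBS (AT1G44575) measured 5.89 and 6.08 in LFYasEMF1/ult1-3, 5.58 and 5.40 in LFYasEMF1 and 5.82 and 5.99 in ult1-3. The WT values of PSBS were 5.48 and 5.13 on slide 1 and 5.48 and 5.66 on slides 3 and 2. LFYasEMF1/ult1-3 and ult1-3 were above every WT array and LFYasEMF1 overlapped it. The PSBS change in LFYasEMF1/ult1-3 was 0.55 ± 0.24 over all slides and 0.42 ± 0.19 with slide as a term (SE, limma adjusted p 0.317 over all slides).

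The 4 RBCS genes differed from WT by 0.06 to 0.24 in LFYasEMF1/ult1-3, by 0.22 to 0.33 in LFYasEMF1 and by -0.06 to 0.08 in ult1-3 on the log2 scale, none past the test. RBCS1A (AT1G67090), which supplies much of the small subunit in leaves, measured 6.51 and 7.14 at 15 and 7 days in LFYasEMF1/ult1-3, 7.07 and 7.09 in LFYasEMF1 and 6.71 and 6.96 in ult1-3. WT RBCS1A measured 6.98 and 7.01 on slide 1 and 6.34 and 6.70 on slides 3 and 2. Both LFYasEMF1 arrays were above all WT arrays, but by 0.09 log2 units or less over those of their own slide. RCA (AT2G39730), the activase that frees Rubisco of bound sugar phosphates, measured 6.0 and 6.30 in LFYasEMF1/ult1-3, 5.96 and 5.93 in LFYasEMF1 and 5.97 and 6.33 in ult1-3, against 5.84 to 6.12 in WT. All groups of RCA overlapped, and its log2 changes were 0.18 ± 0.21, -0.02 ± 0.21 and 0.18 ± 0.21 (SE) in LFYasEMF1/ult1-3, LFYasEMF1 and ult1-3.

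Each gene above was represented by its brightest probe, and 1 other probe passed the test where its gene's chosen probe did not. When every probe was fitted on its own, 1 of the 160 member probes passed in LFYasEMF1 (1.9% of all probes), and it passed with slide as a term too (2.13%). In LFYasEMF1/ult1-3 and ult1-3 no member probe passed (0.863% and 0.0593% of all probes). The probe is 1 of 4 for LHCB4.2 (AT3G08940), a minor antenna gene, and it was singled out after its values were seen. It measured 3.70 and 3.98 at 15 and 7 days in LFYasEMF1/ult1-3, 2.78 and 2.90 in LFYasEMF1 and 5.60 and 5.70 in ult1-3. WT gave 5.60 and 5.23 on slide 1 and 5.08 and 5.19 on slides 3 and 2. The lines with the transgene were low at both ages, LFYasEMF1 lowest, and ult1-3 was in the range of WT or just above it. The log2 change of this LHCB4.2 probe was -2.43 ± 0.25 in LFYasEMF1 (SE, limma adjusted p 0.00217), which is 5.39-fold lower, and -2.57 ± 0.22 with slide as a term (adjusted p 0.00682). In LFYasEMF1/ult1-3 it was -1.43 ± 0.25 (limma adjusted p 0.0516). With slide as a term, 0 of the 160 member probes passed in LFYasEMF1/ult1-3 (1.69% of all probes). The limma adjusted p in that line was 0.00997 after quantile normalization. It was 0.0103 in the authors' deposited value table, which has the pattern of quantile normalization.

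The other 3 probes of LHCB4.2 did not show a difference of that size. The probe that represented the gene measured 5.74 and 6.12 at 15 and 7 days in LFYasEMF1/ult1-3, 5.52 and 5.63 in LFYasEMF1, 6.03 and 6.02 in ult1-3 and 5.67 to 6.22 in WT. The second measured 5.56 and 5.97 in LFYasEMF1/ult1-3, 4.96 and 5.15 in LFYasEMF1, 5.47 and 5.49 in ult1-3 and 4.90 to 5.18 in WT. The remaining probe of LHCB4.2 measured 5.59 and 5.79 in LFYasEMF1/ult1-3, 5.15 and 5.37 in LFYasEMF1, 5.78 and 5.92 in ult1-3 and 5.32 to 5.77 in WT. With LHCB4.2 represented by its brightest probe, the change in LFYasEMF1 was -0.30 ± 0.25 over all slides and -0.51 ± 0.22 with slide as a term (SE), neither past the test. Which transcripts each probe detects was not tested.

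**Figure D3:**
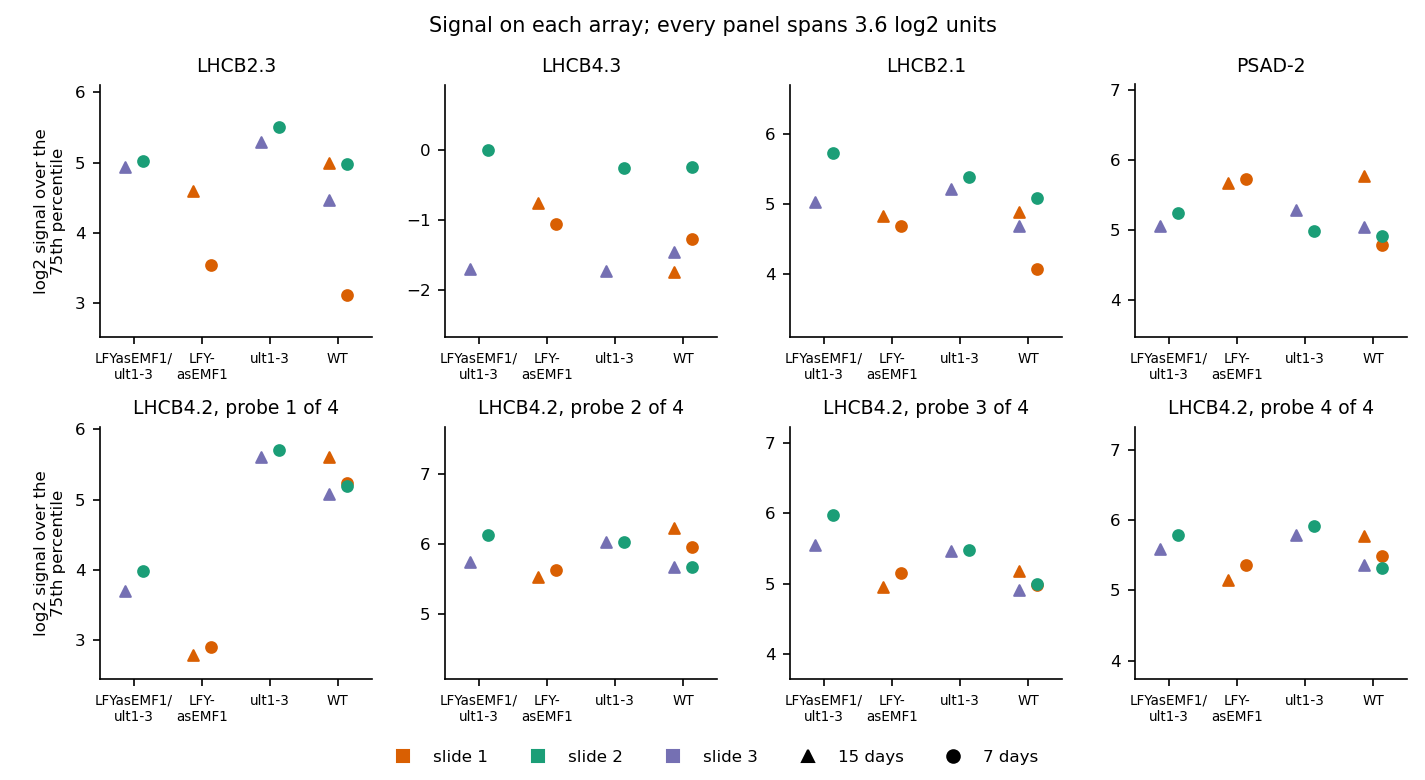
Log2 signal over the array's 75th percentile on each array for the most variable members (top) and the 4 probes of LHCB4.2 (bottom), by genotype, with age as the symbol and slide as the colour; every panel spans the same range of log2 units. LHCB2.3 is low on the 7-day arrays of slide 1, LHCB4.3 is high on slide 2, and 1 LHCB4.2 probe is far below WT in both transgene lines. The other 3 probes show no difference of that size, and the probe that represents the gene is below WT by less, in LFYasEMF1 only.

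The effect of age was read from 15 days against 7 days over all genotypes. None of the 46 members passed (8.25% of all genes), 1 had an unadjusted p under 0.05 (26.5%), and the median log2 change was -0.10 with 9 positive (49.4%). That sign also rested on the scaling, since quantile normalization gave a median of 0.08 with 32 positive. The 1 gene was LHCB4.3, with -0.91 ± 0.33 (SE, limma adjusted p 0.131). Only slide 1 held both ages, so with slide as a term the change rests on the 4 arrays of that slide, and there 1 member passed (3.84% of all genes). It was LHCB2.3, with 1.46 ± 0.27 (SE, limma adjusted p 0.0496). On slide 1 LHCB2.3 stood at 4.59 at 15 days and 3.53 at 7 days in LFYasEMF1, while WT had 4.99 and 3.12. The 15-day values of LHCB2.3 on slide 3 were 4.93, 5.29 and 4.47 in LFYasEMF1/ult1-3, ult1-3 and WT, against 5.02, 5.50 and 4.98 at 7 days on slide 2. A fit of those 4 arrays alone gave the same change with an adjusted p of 0.107, and there 0 members and 0 genes passed, with 1 member and 21.4% of all genes at an unadjusted p under 0.05. The call with slide as a term was lost without any 1 of the 10 arrays, with changes of 1.05 to 1.87 and adjusted p of 0.0627 to 0.193.

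On slides 2 and 3 alone, LHCB4.3 was lower on the 15-day arrays, with a log2 change of -1.46 ± 0.18 (SE, limma adjusted p 0.0241, 14.7% of all genes past the test). On those slides age and slide cannot be told apart, and on slide 1 LHCB4.3 measured -0.76 and -1.05 at 15 and 7 days in LFYasEMF1 and -1.74 and -1.26 in WT. Of 77 listed photosynthesis genes outside the 46, 3 passed over all slides (3.9%, against 8.25% of all genes). PSBP-2, CPSRP54 for an antenna assembly factor and SIG2 for a plastid sigma factor were higher at 15 days. They had log2 changes of 2.02 ± 0.46, 1.21 ± 0.29 and 1.63 ± 0.36 (SE, limma adjusted p 0.0388, 0.0445 and 0.0357). Each call was lost without any of 8 of the 10 arrays. At an unadjusted p under 0.05, 22.1% of the 77 genes were found, against 26.5% of all genes. With slide as a term 3 of the 77 passed (3.9%, against 3.84% of all genes). These were 1 of 4 other photosystem genes and 2 of 7 photoprotection genes. The CPSRP54 and SIG2 calls were lost there, with 0 assembly and 0 regulator genes past the test. In WT alone 0 of 46 members passed, as did 0 of all genes, and at an unadjusted p under 0.05 there were 0 members and 3.58% of all genes. Whether the genotype changes differed between the ages was tested by interaction terms, and 0 members and 0 genes passed in limma for any mutant. At an unadjusted p under 0.05 there were again 0 members, against 2.12% of all genes for LFYasEMF1/ult1-3, 1.67% for LFYasEMF1 and 0.792% for ult1-3. With 1 array per mutant and age, the residual spread in these terms came from the WT pairs alone, whose arrays lay on different slides.

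The same fit gave the difference between slide 1 and slides 2 and 3, with genotype and age held fixed. Each mutant lay on only 1 side of this contrast. The estimate is therefore the mean of WT replicate 1 minus that of WT replicate 2 over both ages, and the mutant arrays bear only on its spread. It draws on the same values as the differences between WT arrays given above. None of the 46 members passed (7.4% of all genes) and 2 had an unadjusted p under 0.05 (27.1%). The 2 were LHCB1.4 at 0.64 ± 0.20 and LHCB2.3 at -0.67 ± 0.27 (SE), with adjusted p of 0.116 and 0.182 in limma. The median was 0.23 with 36 positive (47% of all genes), and -0.04 with 20 positive after quantile normalization. Of the 77 listed genes outside the 46, 18 passed (23.4%, against 7.4% of all genes), and 5 of 12 listed regulators of photosynthesis genes were lower on slide 1 and 0 were higher. GLK1 and GLK2, the transcription factors that switch on antenna genes, differed by -1.68 ± 0.26 (adjusted p 0.0245) and -1.84 ± 0.19 (adjusted p 0.0115). GLK2 measured 3.67 and 4.18 at 15 and 7 days in LFYasEMF1/ult1-3, 3.08 and 2.29 in LFYasEMF1, 3.44 and 3.92 in ult1-3, and in WT 2.31 and 1.61 on slide 1 and 3.51 and 4.1 on the other slides. SIG5, a plastid sigma factor gene, differed by -2.34 ± 0.43 (adjusted p 0.0364). HY5, a light signalling factor, did not pass, at -0.75 ± 0.47 (adjusted p 0.364).

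Of 7 photoprotection genes, 3 were lower and 1 higher on slide 1 (57.1% past the test, against 7.4% of all genes). The early light-induced protein genes ELIP1 and ELIP2 differed by -5.44 ± 0.45 and -6.76 ± 0.59 (SE, limma adjusted p 0.00699 and 0.00803). ELIP2 measured 4.13 and 4.52 at 15 and 7 days in LFYasEMF1/ult1-3, -0.56 and -2.97 in LFYasEMF1, 4.33 and 4.82 in ult1-3, and in WT -0.27 and -5.34 on slide 1 and 3.6 and 4.3 on the other slides. NPQ1, the violaxanthin de-epoxidase gene, was the higher one, at 1.50 ± 0.32. Of 18 chlorophyll synthesis genes, 2 were higher and 3 lower on slide 1 (27.8%, against 7.4% of all genes). Among them were the protochlorophyllide reductase genes PORB at 2.3 ± 0.22 and PORA at 1.65 ± 0.22, and the chlorophyll b synthesis gene CAO at -1.62 ± 0.24. Of 12 electron transport genes, 2 passed (16.7%, against 7.4% of all genes). FD1 for a ferredoxin was lower, at -1.72 ± 0.26, and FNR2 for its reductase was higher, at 1.44 ± 0.28. Of 4 photosystem genes outside the 46, PSBP-2 and LHCB7 were lower (50%), and of 14 Calvin cycle and 10 assembly genes 0 passed. At an unadjusted p under 0.05 there was 1 Calvin cycle gene (7.14%) and 1 assembly gene (10%), against 27.1% of all genes. In the same contrast 6 of 6 evening clock genes were higher and 5 of 6 morning genes lower, and the part of the time of day in these differences was not tested. Each of these named calls outside the clock kept its direction but was lost without at least 1 of the 10 arrays: ELIP1 and ELIP2 without 1, GLK2 and PORB without 4 in turn, and LHCB7 without each of the 10. No listed gene of chlorophyll synthesis, the Calvin cycle, electron transport, assembly, regulation or photoprotection passed against WT in any of the 3 mutants. This held over all slides and with slide as a term. Of all genes, 0.792% passed in LFYasEMF1/ult1-3, 1.68% in LFYasEMF1 and 0.0623% in ult1-3 over all slides. With slide as a term the shares were 1.45%, 2.18% and 0.0356%.

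**Figure D4:**
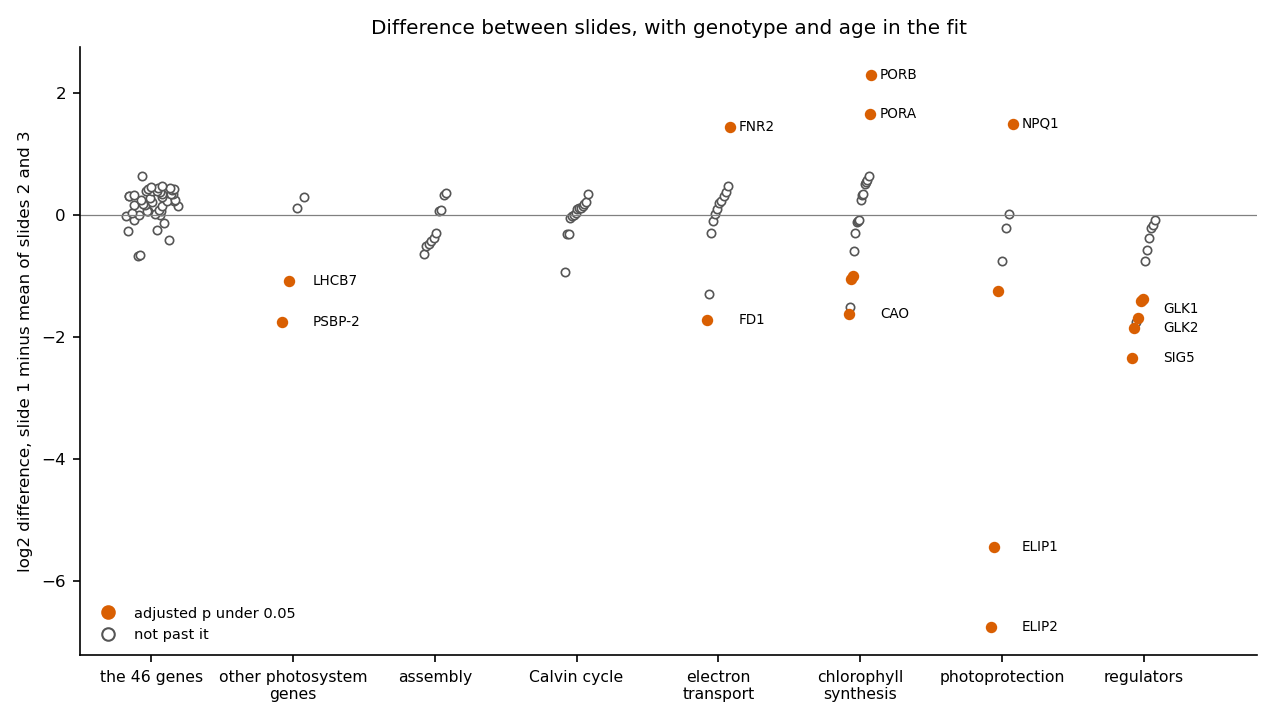
Log2 difference between slide 1 and the mean of slides 2 and 3, from the limma fit with genotype, age and slide, for the 46 genes and for 7 lists of other photosynthesis genes; filled points have an adjusted p under 0.05. The 46 genes lie between -0.67 and 0.64, while ELIP1 and ELIP2 lie below -5 and PORB lies above 2. Each difference is that between the WT replicates, since each mutant lay on only 1 side of the contrast.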

How the data were processed

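RNA of 10 whole-seedling samples was measured on 1-colour Agilent arrays, and per the submitters' processing notes the scans were read by Agilent Feature Extraction 10.7.1.1. The deposited processed signal is a linear intensity; per the file headers its background was subtracted and a trend across the array removed. The authors' value table, also a deposited intensity, has the pattern of quantile normalization and served as an alternative. Each signal was scaled by the 75th percentile of its array, over spots that were neither controls nor outliers, and log2 was taken. Probes were named through their accessions and a RefSeq table (assembly TAIR10.1, names and gene order only). Of 43603 probes, 34358 had a locus. A probe was kept if well above background on at least 1 array, and the probe with the highest mean stood for its gene.

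Tests used limma 3.58.1 (R 4.3.3) with Benjamini-Hochberg adjustment over all genes tested (22473 or slightly fewer where outlier spots left a term without a value), at an adjusted p under 0.05. The fit of genotype and age left 5 residual degrees of freedom, and 3 with slide as a term. The fits were tested on simulated data without a slide effect, which cannot show how they behave under the slide differences seen here. Alternatives were quantile normalization, normexp correction (offset 50, on median signals), other probe and background rules, the authors' value table, slide as a term and leaving out each array. The members, lists and named genes were chosen with earlier results of these data known. Named members were, per role, the one with the highest mean signal and the one with the largest change, with RCA, the variable genes and, from the other lists, GLK1, GLK2, HY5 and up to 3 genes past the threshold per comparison by size. Plastid-encoded genes were not analysed here.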

Additional observations from a re-analysis of the deposited data

How the results depend on the processing

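The count of 0 members past the threshold in the 5 genotype comparisons held under slide as a term, quantile normalization, the authors' value table, normexp, the background and probe rules, the variance model, group means and the loss of any 1 array. The count for age was 1 with slide as a term, against 0 without it, because of LHCB2.3. The median of the members between slides was -0.042 after quantile normalization and -0.050 in the authors' value table, against 0.231. The median of the LFYasEMF1/ult1-3 change at 15 days minus that at 7 days was 0.027 and 0.021 under these 2 scalings, against -0.284. The cause was not tested. Without 1 array at a time, the members' medians ran from 0.121 to 0.322 for LFYasEMF1/ult1-3, 0.158 to 0.322 for LFYasEMF1 and 0.121 to 0.316 for ult1-3 against WT, from -0.113 to 0.104 and -0.069 to 0.117 for LFYasEMF1/ult1-3 against LFYasEMF1 and ult1-3, from -0.188 to -0.059 for age, -0.254 to 0.221 for age in WT and 0.007 to 0.431 between slides, with 0 members past the threshold. Normexp moved the median over all genes to 0.08 in LFYasEMF1/ult1-3, 0.12 in LFYasEMF1 and 0.06 in ult1-3.

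Over all settings, the genes past the threshold numbered 64 to 326 for LFYasEMF1/ult1-3 (178 in the report), 152 to 564 for LFYasEMF1 (377), 5 to 19 for ult1-3 (14), 25 to 301 and 20 to 103 for LFYasEMF1/ult1-3 against LFYasEMF1 (205) and ult1-3 (83), 0 to 2606 for age over all slides or with slide as a term (1853; 3307 on slides 2 and 3 alone and 0 on slide 1 alone) and 59 to 1951 between slides (1661). The low LHCB4.2 probe passed in LFYasEMF1 under each of 14 alternatives added after seeing the data, from -2.59 to -2.3, with adjusted p in limma of 0.00341 to 0.0442 without 1 array at a time. With the replicate number of WT as a block, 235 genes and 0 members passed for age in WT, against 0 genes without it, and the members' median was -0.036 in both. With 2 pairs on different slides, the numbers do not show that the samples were paired.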
